A study of Mus musculus with 8 samples.

Results

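The Z-disc is the structure that borders each sarcomere, the contractile unit of striated muscle, and anchors the thin actin filaments of neighboring sarcomeres. Sarcomeric alpha-actinin cross-links these filaments, and many further proteins bind to it: the myozenins, which also bind the phosphatase calcineurin, telethonin, which caps the end of titin, and myotilin and myopalladin, which belong to the palladin family. Desmin is the intermediate filament that ties neighboring Z-discs to each other, and synaptopodin 2 is an actin-binding protein of the Z-disc that smooth muscle also makes. The 10 genes described here are Actn2, Actn3, Myoz1, Myoz2, Myoz3, Tcap, Myot, Mypn, Des and Synpo2. They were picked by gene symbol as known Z-disc components, with earlier results of these data known, and each was found once among the 47643 genes of the deposited table. All 10 passed the filter on low values, which kept 14229 genes for testing.

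RNA was from quadriceps muscle of 8 C57BL/6 mice (C57BL/6J in the methods of the study), 4 labelled Nup210-/- and 4 labelled Nup210+/+, with 1 library per mouse. Nup210-/- mice carry a constitutive deletion of Nup210 exon 2, made by Hprt-Cre recombination, so the deletion is not restricted to muscle fibers. Nup210 encodes a transmembrane protein of the nuclear pore. No treatment or injury is named for these mice, and their age and sex are not given in the sources used here. Levels are given in TPM, the share of a gene in the transcripts of its library after correction for transcript length, so they can be compared between genes. Total reads per library are unknown, so no counting interval is given. Nup210 TPM was 9.54, 10.8, 11.9 and 8.81 in Nup210-/- libraries 1 to 4 and 5.71, 10.1, 9.19 and 6.71 in Nup210+/+ libraries 1 to 4. Nup210 was thus not lower in the libraries labelled Nup210-/-. Its estimate was higher there, with a log2 fold change (Nup210-/- minus Nup210+/+) of 0.44 (SE 0.15). The genotypes overlapped, and the difference did not pass across all genes (limma unadjusted p = 0.0146, limma adjusted p = 0.231). A value per gene does not show whether exon 2 was read, so in these data the genotypes rest on the labels alone. The study reported loss of Nup210 protein in muscles of this mouse line, by immunoprecipitation and immunofluorescence.

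Promoter sequence was at hand for 5 of the 10 genes (Actn2, Myoz2, Mypn, Des and Synpo2), from RefSeq on GRCm38.p6, and the 250 bases upstream of each gene start were searched. The 3 that hold a motif of a muscle transcription factor other than the plain E-box are shown, 5′ to 3′ on the strand of the gene, with that motif in capitals. Des (chr1:75360042-75360291, plus strand) holds CAGCTG, the E-box form favored by MyoD and its relatives. Myoz2 (chr3:123034988-123035237, minus strand) holds CAGCTG and a motif of MEF2, a factor of muscle differentiation and of slow fibers. Synpo2 (chr3:123236150-123236399, minus strand) holds a MEF2 motif.
Des: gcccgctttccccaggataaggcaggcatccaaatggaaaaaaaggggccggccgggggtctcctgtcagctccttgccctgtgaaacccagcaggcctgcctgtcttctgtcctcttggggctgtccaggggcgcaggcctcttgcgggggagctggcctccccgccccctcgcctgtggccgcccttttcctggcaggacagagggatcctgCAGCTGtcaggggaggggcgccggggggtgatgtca
Myoz2: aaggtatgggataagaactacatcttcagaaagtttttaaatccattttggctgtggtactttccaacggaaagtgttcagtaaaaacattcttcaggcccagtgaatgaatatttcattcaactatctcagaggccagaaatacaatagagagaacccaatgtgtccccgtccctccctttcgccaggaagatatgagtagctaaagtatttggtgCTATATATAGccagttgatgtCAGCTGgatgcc
Synpo2: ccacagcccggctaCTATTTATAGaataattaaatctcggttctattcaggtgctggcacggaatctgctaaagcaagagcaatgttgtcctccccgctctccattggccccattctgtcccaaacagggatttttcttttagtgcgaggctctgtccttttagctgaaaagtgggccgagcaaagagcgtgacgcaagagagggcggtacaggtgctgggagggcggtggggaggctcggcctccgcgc

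Counted from the gene start of the RefSeq promoter table, the first base of CAGCTG lay at -36 in Des and at -12 in Myoz2, and the MEF2 motif began at -33 in Myoz2 and at -236 in Synpo2. Annotated starts differ. The GENCODE M21 start of Myoz2 lies 28 bases further upstream, so its CAGCTG and part of its MEF2 motif fall within that gene model. The GENCODE M21 start of Des lies 37 bases further downstream. Both strands were searched. Among 32851 RefSeq promoter windows of the same length, 13% held CAGCTG and 2.92% held a MEF2 motif. Each of the 5 windows held the plain E-box CANNTG, which includes CAGCTG, but so did 66.2% of all windows. No serum response factor motif (CArG box) and no TATAAA on the strand of the gene were found in the 5, against 1.47% and 7.59% of all windows. These matches describe letters only, since no binding was measured.

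Levels of the 10 genes spanned a wide range in quadriceps. By mean TPM over the 8 libraries, Actn3 came first with 3517, followed by Tcap with 2168, Myoz1 with 1322, Des with 1150.1 and Myot with 942. A lower tier held Actn2 with 384 and Synpo2 with 245, and the lowest held Myoz2 with 108, Mypn with 92.0 and Myoz3 with 56.4. Each gene stood above the next in 8 of 8 libraries, except that Myoz2 stood above Mypn in 6 of 8. The ranges of Myoz1 and Des overlapped over the 8 libraries, as did those of Myoz2 and Mypn. Together the 10 genes made up 1.02% to 1.08% of all TPM in Nup210-/- and 0.923% to 0.980% in Nup210+/+, without overlap. The summed TPM of 8 skeletal muscle markers, given below, was likewise higher without overlap, at 89703 to 96133 against 83074 to 88116.

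**Figure D1:**
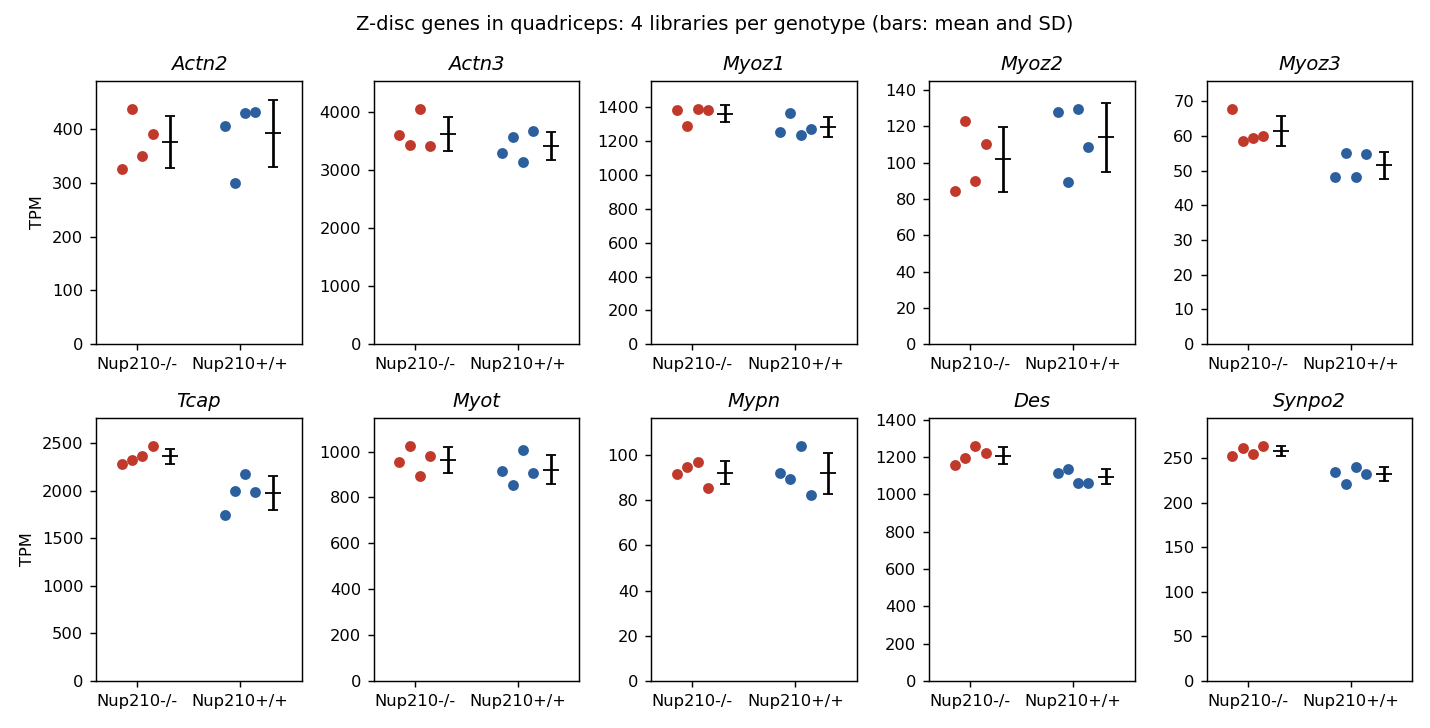
TPM of the 10 Z-disc genes, 1 panel per gene with its own axis from 0. Red points are the 4 Nup210-/- libraries and blue points the 4 Nup210+/+ libraries, and the black bar is the mean with the SD. The genotypes separate for Myoz3, Tcap, Des and Synpo2 and overlap for the other 6.

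None of the 10 genes passed the test across all genes, and 4 were nonetheless higher in every Nup210-/- library than in every Nup210+/+ library. The comparison asks how loss of Nup210 alters the muscle transcriptome. At a limma adjusted p of 0.05, 0 of 10 were called in either direction, against 0.0492% of all tested genes called higher and 0.0633% called lower. At an unadjusted p of 0.05, 5 of 10 were higher (Myoz1, Myoz3, Tcap, Des and Synpo2) and 0 lower, where 7% of all tested genes were higher and 7.18% lower. Myoz3, Tcap, Des and Synpo2, 4 of 10, were higher without overlap of the genotypes, and 0 were lower without overlap, where 4.78% of all tested genes were higher and 4.6% lower in this way. Estimates were above 0 for 9 of 10, all but Myoz2. The median log2 fold change of the 10 was 0.18, beside -0.0061 over all tested genes.

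These counts depended on what the libraries were scaled to. Limma fits, log2 fold changes and counts of genes without overlap used TPM scaled by the median of ratios over genes with no 0 value. TPM levels, means, shares and sums, here and below, are as deposited, as are the exact permutation tests of single genes. The 8 skeletal muscle markers (Acta1, Ckm, Pygm, Ryr1, Cacna1s, Mylpf, Tnnt3 and Myh4) also had 8 of 8 estimates above 0, with a median log2 fold change of 0.20 (from Mylpf, 0.11, to Myh4, 0.30). Mylpf, Tnnt3 and Myh4 also belong to the fast-fiber list given below. A scaling to the 8 markers is therefore in part a scaling to fast-fiber genes. Scaling each library to the geometric mean of those 8 markers, a choice made after seeing the data, left 4 of 10 Z-disc estimates above 0, 0 of 10 at an unadjusted p of 0.05 and 0 of 10 without overlap. Of all tested genes, 26.4% were at an unadjusted p of 0.05 in either direction under that scaling (14.2% under the first), and 0.372% were higher without overlap. The median of the 10 was then -0.029, and that of all tested genes -0.18. Relative to the median of all tested genes, the median of the 10 was 0.19 higher under the first scaling and 0.15 higher under the second. Under the second scaling the estimates were below 0 for Actn2 (-0.17), Actn3 (-0.032), Myoz1 (-0.026), Myoz2 (-0.27), Myot (-0.049) and Mypn (-0.11), and the lowest limma adjusted p was 0.236. None of the 10 genes is among the 8 markers. With TPM as deposited, the log2 fold change was 0.26 for Tcap, 0.25 for Myoz3, 0.14 for Des and 0.15 for Synpo2. These were smaller than after median-of-ratios scaling. The same 4 genes were higher without overlap, where 1.54% of all tested genes were. The median of the 10 was then 0.086, and that of all tested genes -0.085.

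**Figure D2:**
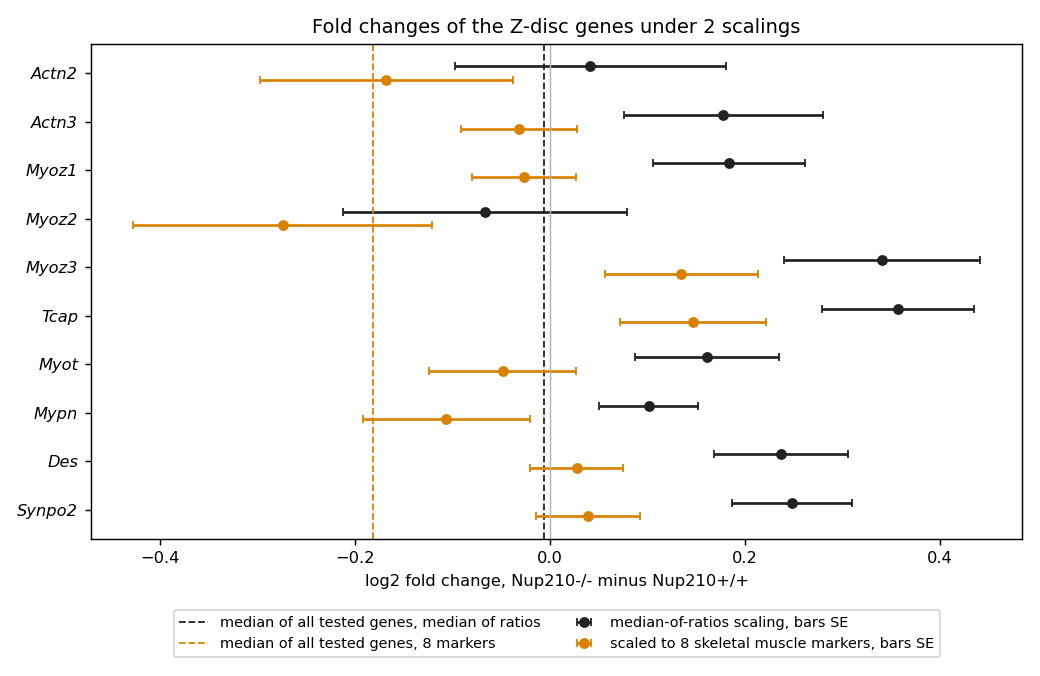
Log2 fold change (Nup210-/- minus Nup210+/+) of each Z-disc gene, with SE bars, after median-of-ratios scaling (black) and after scaling to 8 skeletal muscle markers (orange), and the median of all tested genes under each (dashed lines). The estimates of the 10 genes shift left together. Tcap, at 0.36 and 0.15, and Myoz3, at 0.34 and 0.13, lie furthest to the right.

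Sarcomeric alpha-actinin is encoded by Actn2 (chr13:12269426-12340760, minus strand), made in all muscle fibers, and Actn3 (chr19:4861216-4877909, minus strand), made in fast fibers. These and the following gene positions are from GENCODE M21 on GRCm38. Actn3 TPM was 3601, 3428, 4043 and 3406 in Nup210-/- libraries 1 to 4 and 3298, 3569, 3133 and 3660.2 in Nup210+/+ libraries 1 to 4. The genotypes overlapped, with means of 3619 ± 295 and 3415 ± 243 (SD, n = 4 each), and the log2 fold change was 0.18 (SE 0.10, 95% confidence interval -0.053 to 0.41), with a limma adjusted p of 0.454. Actn2 TPM was 326, 437, 351 and 391 in Nup210-/- and 406, 301, 429.8 and 432 in Nup210+/+. Its means of 376 ± 48.7 and 392.3 ± 62.1 differed by less than the spread within a genotype, with a log2 fold change of 0.041 (SE 0.14, 95% confidence interval -0.27 to 0.36) and a limma adjusted p of 0.916. With TPM as deposited, the estimate for Actn2 was -0.053.

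Actn3 made up 87.9% to 92.2% of the summed alpha-actinin TPM. The log2 ratio of Actn2 to Actn3 within a library was -3.27 ± 0.27 in Nup210-/- and -3.13 ± 0.30 in Nup210+/+, a difference of -0.14 (two-sided exact permutation test over 70 labelings, p = 0.600). Actn2 and Actn3 are alike in sequence, and RSEM divides reads that match both by estimate, so the split between them carries an error that the table does not give.

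Among the myozenins, Myoz3 stood out by genotype. Myoz3 and Myoz1 are the myozenins of fast fibers, and Myoz2 that of slow fibers and heart. Myoz3 TPM was 67.7, 58.5, 59.3 and 59.9 in Nup210-/- libraries 1 to 4 and 48.2, 55.0, 48.3 and 54.7 in Nup210+/+ libraries 1 to 4. Every Nup210-/- value was above every Nup210+/+ value, with means of 61.4 ± 4.26 and 51.5 ± 3.82 (two-sided exact permutation test, p = 0.0286, the smallest that 4 against 4 can give). The log2 fold change was 0.34 (SE 0.10, 95% confidence interval 0.11 to 0.57), which did not pass across all genes (limma adjusted p = 0.198).

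Myoz1 (chr14:20649107-20656540, minus strand) TPM was 1386, 1290.2, 1389 and 1387 in Nup210-/- and 1255, 1367, 1237 and 1269 in Nup210+/+. Only Nup210-/- library 2 and Nup210+/+ library 2 lay inside the range of the other genotype, and the means were 1363 ± 48.5 and 1282 ± 58.2. Its log2 fold change was 0.18 (SE 0.078, 95% confidence interval 0.0072 to 0.36), with a limma adjusted p of 0.333. Myoz2 (chr3:123006206-123035015, minus strand) TPM was 84.5, 123, 89.9 and 110.2 in Nup210-/- and 128, 89.3, 129.5 and 109 in Nup210+/+. This was the single Z-disc gene of the 10 with an estimate below 0, at -0.066 (SE 0.15, 95% confidence interval -0.40 to 0.26), and the genotypes overlapped (limma adjusted p = 0.866). The sign of this estimate changed when Nup210-/- replicate 1 or 3 was left out, to 0.0069 and 0.0056.

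Myoz1 made up 87.4% to 90.5% of myozenin TPM, Myoz2 5.49% to 9.16% and Myoz3 3.37% to 4.40%. The log2 ratio of Myoz3 to Myoz1 was -4.48 ± 0.088 in Nup210-/- and -4.64 ± 0.074 in Nup210+/+. This difference of 0.16 did not pass (two-sided exact permutation test, p = 0.0571, adjusted over 3 ratios 0.171). The log2 ratio of Myoz2 to Myoz1 was -3.76 ± 0.29 and -3.51 ± 0.31, a difference of -0.25 that was within the spread (exact permutation p = 0.257, adjusted 0.386). These ratios are free of the scaling of the libraries. Neither passed, but the smallest p of the exact permutation test is 0.0286. A ratio that changed alone could therefore not pass after adjustment over 3, and the test cannot decide whether the paralogs changed against each other.

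Tcap (chr11:98383811-98384953, plus strand), which encodes telethonin, had the largest log2 fold change of the 10, by a margin over Myoz3 that is within their SEs and turned over in 4 of the 8 fits with a library left out. Its TPM was 2286, 2327, 2364 and 2471 in Nup210-/- libraries 1 to 4 and 1742, 1994, 2171 and 1989 in Nup210+/+ libraries 1 to 4. The lowest Nup210-/- value stood above the highest Nup210+/+ value, with means of 2362 ± 79.5 and 1974 ± 176, a ratio of 1.20 (exact permutation p = 0.0286). After scaling the log2 fold change was 0.36 (SE 0.078, 95% confidence interval 0.18 to 0.53), and with TPM as deposited it was 0.26. Ranked by p, Tcap was number 155 of 14229 genes, and its limma adjusted p of 0.121 did not pass. Against the 8 skeletal muscle markers its log2 fold change was 0.15 (limma adjusted p = 0.236), and that of Myoz3 was 0.13 (limma adjusted p = 0.285).

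The palladin family members Myot and Mypn did not separate by genotype. Myot, which encodes myotilin, had a TPM of 954, 1025, 892 and 982 in Nup210-/- and 915, 852, 1006 and 908 in Nup210+/+. The means were 963 ± 55.8 and 920.3 ± 63.6, and the log2 fold change was 0.16 (SE 0.074, 95% confidence interval -0.0052 to 0.33), with a limma adjusted p of 0.364. Mypn (chr10:63115795-63203952, minus strand), which encodes myopalladin, had a TPM of 91.4, 94.8, 97.1 and 85.3 in Nup210-/- and 92.2, 89.2, 104 and 82.1 in Nup210+/+. Its Nup210-/- range lay wholly inside its Nup210+/+ range, with means of 92.2 ± 5.16 and 91.9 ± 9.13 before scaling. After scaling the log2 fold change was 0.10 (SE 0.051, 95% confidence interval -0.013 to 0.22), with a limma adjusted p of 0.399.

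Des and Synpo2 were higher in Nup210-/- by a small and even amount. Des (chr1:75360329-75368579, plus strand) TPM was 1155, 1194, 1259 and 1220.3 in Nup210-/- libraries 1 to 4 and 1116, 1138, 1058 and 1061 in Nup210+/+ libraries 1 to 4. All Nup210-/- values were above all Nup210+/+ values, with means of 1207 ± 43.9 and 1093 ± 39.7 (exact permutation p = 0.0286), and the log2 fold change was 0.24 (SE 0.068, 95% confidence interval 0.082 to 0.39), with a limma adjusted p of 0.192. Des shares at most 220 bases of an exon with the antisense gene Gm15179. The libraries were directional, but whether the estimates used strand is not given in the sources used here. Synpo2 (chr3:123076519-123236149, minus strand) TPM was 252, 261, 254 and 264 in Nup210-/- and 234, 221, 240.3 and 232 in Nup210+/+. The genotypes did not overlap, at 258 ± 5.41 and 232 ± 7.95 (exact permutation p = 0.0286), and this was the tightest of the 10 within a genotype, with a coefficient of variation of 2.10% in Nup210-/- and 3.43% in Nup210+/+. Its log2 fold change was 0.25 (SE 0.061, 95% confidence interval 0.11 to 0.39), with a limma adjusted p of 0.152. Scaled to the 8 skeletal muscle markers, the log2 fold changes were 0.027 for Des and 0.039 for Synpo2.

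Smooth muscle also makes desmin and synaptopodin 2, so its markers were measured beside them. Of 7 smooth muscle markers 4 were tested, and Cnn1, Actg2 and Myocd were under the filter. The summed TPM of the 7 was 33.3 to 38.5 in Nup210-/- and 40.4 to 50.5 in Nup210+/+, without overlap, and none of the 7 was at 0 in any library. Most of that gap was Acta2, the smooth muscle actin, at 14.9 ± 0.605 TPM in Nup210-/- and 21.6 ± 3.24 in Nup210+/+, while Myh11, the smooth muscle myosin, had a log2 fold change of -0.010, and Lmod1 one of 0.38. A score that weights the 4 tested markers equally was -0.015 ± 0.073 in Nup210-/- and 0.015 ± 0.16 in Nup210+/+. Over the 8 libraries, 0 of 10 genes correlated with a smooth muscle score past an adjusted p of 0.05 (Pearson's r, permutation test, adjusted over the 20 relations computed in the same family). By Pearson's r 0 were under 0.05 before adjustment, and by Spearman's rho 0 were. For Des r was 0.29 (permutation p = 0.492) and rho 0.071 (permutation p = 0.882), and for Synpo2 r was 0.28 (permutation p = 0.493) and rho 0.095 (permutation p = 0.840). Within genotypes, with the genotype means subtracted, r was higher, at 0.78 for Des (permutation p = 0.0399, adjusted 0.145) and 0.87 for Synpo2 (permutation p = 0.0278, adjusted 0.139), and neither passed after adjustment. Without the 2 libraries farthest from the median score, Nup210+/+ replicates 1 and 4, r was 0.81 for Des and 0.74 for Synpo2 (permutation p = 0.0597 and 0.0889, adjusted 0.296 for both).

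Actn2 and Myoz2 separated the libraries in another way, along the slow-fiber genes. The summed TPM of 9 slow-fiber genes was 1162 and 1178 in Nup210-/- libraries 1 and 3 and 1393 in Nup210+/+ library 2, and 2069.9 to 2236 in the other 5. The 3 libraries with low slow-fiber sums were also the 3 lowest in Actn2, at 301 to 351 TPM beside 391 to 437. They were the 3 lowest in Myoz2 as well, at 84.5 to 89.9 TPM beside 109 to 129.5. The low libraries came from both genotypes, and the libraries fell into separate groups, so no pooled correlation is given. No such split was seen for Actn3 or Myoz1, whose values in these 3 libraries were among the upper 4 of the 8. Between genotypes, 0 of 9 slow-fiber genes had an unadjusted limma p under 0.05, with a median log2 fold change of -0.17 (from Myl3, -0.31, to Myh7, 0.018), or -0.33 without Nup210+/+ replicate 2.

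**Figure D3:**
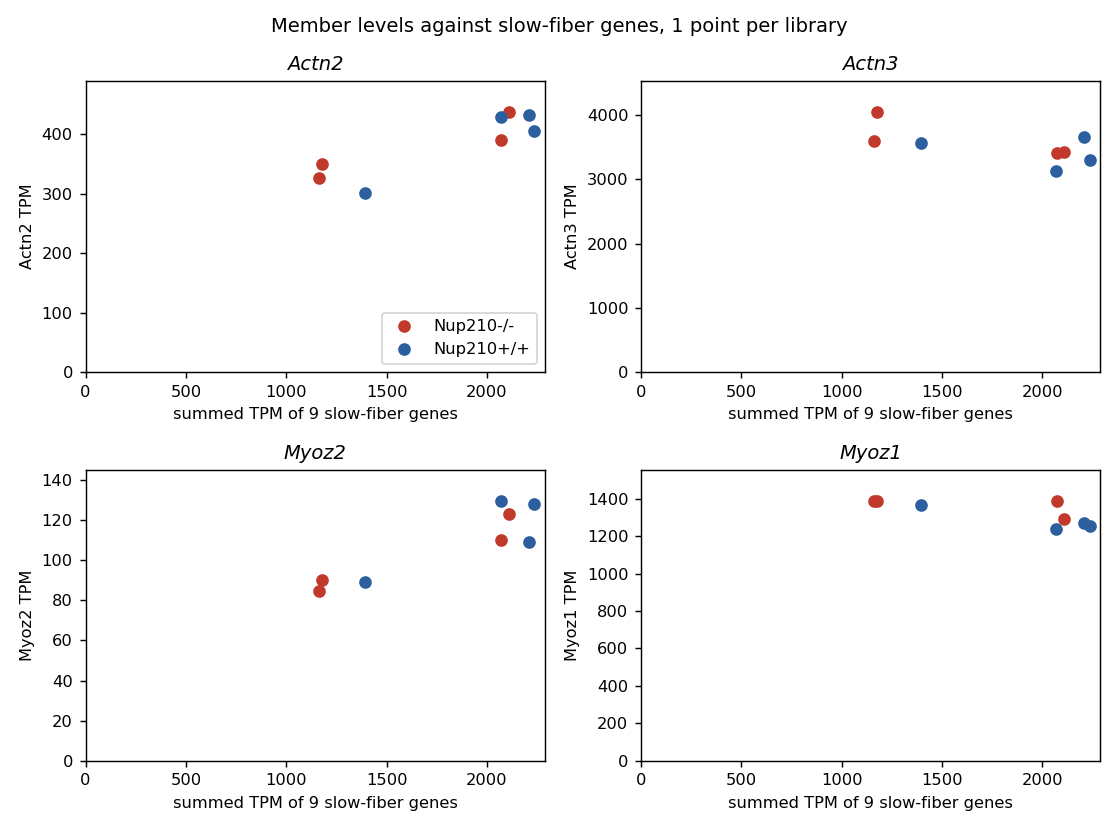
TPM of Actn2, Actn3, Myoz2 and Myoz1 against the summed TPM of 9 slow-fiber genes, 1 point per library, with Nup210-/- in red, Nup210+/+ in blue and all axes from 0. The 3 libraries on the left, 2 red and 1 blue, are the lowest in Actn2 and Myoz2 and not in Actn3 and Myoz1.

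Likeness over the 8 libraries was searched among the 6084 tested genes whose TPM averaged 10 or more, as Pearson's r of log2 values. This describes the libraries only, since so few points and so many genes give high values, and the points share the genotypes. For Myoz2 the 3 most alike were Csrp3 (r = 0.95), Ctgf (0.94) and Tnni1 (0.94), of which Csrp3 encodes a LIM protein of the Z-disc and Tnni1 the slow troponin I. For Actn2 they were Lpl (0.97), Kremen1 and Idh2, and for Actn3 Pabpc4 (0.99), Rdx and Pgap2. Sar1b came first for both Myoz1 (0.99) and Myoz3 (0.97), followed by Mrln and Pigyl for Myoz1 and Afg3l1 and Usp25 for Myoz3. Tcap was most like Plcl2 (0.98), Sema6c and Trap1, Myot most like Nedd1 (0.97), mt-Nd6 and Vwa8, and Mypn most like Sgcd (0.99), Srpr and Sort1. Des was most like Pnrc1 (0.99), Aldoa and Amz2, and Synpo2 most like Rab12 (0.99), Clpx and Ipo13.

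Among the 45 pairs of the 10 genes, 14 had a Pearson correlation past an adjusted p of 0.05 over the 8 libraries by permutation test, and 0 a Spearman correlation (lowest adjusted p = 0.0513, with 15 under 0.05 before adjustment). With the genotype means subtracted, 0 of 45 passed, and without the 2 libraries farthest from the median 0 did. In both checks a pair that held alone could not pass after adjustment over 45, because few orders remain to permute. Without the 2 farthest libraries, Tcap with Synpo2 had r = 0.97 and the smallest possible permutation p, 0.00139 (adjusted 0.0625). These checks therefore cannot decide whether the pairs held. The strongest pair was Myoz1 with Myoz3, at r = 0.94 (permutation p = 0.000893, adjusted 0.0372) and rho = 0.83 (permutation p = 0.0154, adjusted 0.0865). Its r was 0.94 without those 2 libraries and 0.89 within genotypes (permutation p = 0.0174, adjusted 0.234), so this pair did not pass within genotypes.

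Of 34 other genes of the Z-disc and its partners, all were tested and 2 passed. The list also holds Actn1 and Actn4, which encode alpha-actinins outside the sarcomere, and the intermediate filament gene Vim. Pdlim3, a PDZ-LIM protein that binds alpha-actinin, rose in Nup210-/-, with TPM of 394, 399, 390.3 and 411 against 306, 298, 298 and 304. The genotypes were far apart, at 399 ± 9.15 and 301 ± 4.14, with a log2 fold change of 0.50 (SE 0.069, 95% confidence interval 0.34 to 0.65) and a limma adjusted p of 0.0497. Xirp1, which encodes an actin-binding Xin repeat protein, fell in Nup210-/-, with TPM of 66.5, 68.7, 68.5 and 61.6 against 148, 110.5, 121 and 133. Its means were 66.3 ± 3.31 and 128 ± 16.4, with a log2 fold change of -0.84 (SE 0.11, 95% confidence interval -1.08 to -0.60) and a limma adjusted p of 0.0490. Both lay close to the threshold. With any 1 library left out the limma adjusted p ran from 0.0468 to 0.171 for Pdlim3 and from 0.0521 to 0.140 for Xirp1, and the calls were lost each time, except that of Pdlim3 without Nup210+/+ replicate 4. With the replicate number as a block both had a limma adjusted p of 0.226. Scaled to the 8 skeletal muscle markers, both passed, with log2 fold changes of 0.29 for Pdlim3 and -1.05 for Xirp1.

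Estimates were above 0 for 24 of the 34 and below 0 for 10, with a median log2 fold change of 0.10. Scaled to the 8 skeletal muscle markers, the median was -0.10 and 28 of the 34 were below 0. The median of all tested genes was then -0.18. Relative to that of all tested genes, the median of the 34 was 0.11 higher under the first scaling and 0.076 higher under the second. At an unadjusted p of 0.05, 8 were higher and 2 lower, and 6 were higher and 2 lower without overlap. The shares of all tested genes were 7% and 7.18% at that p, and 4.78% and 4.6% without overlap. The intermediate filament genes among them spread widely, from Plec at 0.26 (limma adjusted p = 0.211), which links desmin to the Z-disc, to Vim at -0.43 (limma adjusted p = 0.116), which is made mainly by non-muscle cells. The calcineurin subunits that myozenins bind had log2 fold changes of 0.11 for Ppp3ca, 0.20 for Ppp3cb and 0.019 for Ppp3r1, none past an adjusted p of 0.05. Plec, Vim and the calcineurin genes were named after their values were seen. Vim was among the genes lower at an unadjusted p of 0.05 and among those lower without overlap. Estimates for Actn1 (-0.042) and Actn4 (-0.22) were below 0 as well.

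Leukocyte, fibroblast, tendon and adipocyte markers had estimates below 0 throughout, under both scalings. Leukocyte genes had 12 of 12 estimates below 0, with a median log2 fold change of -0.65 (from Cd53, -1.08, to Csf1r, -0.37), and Cd52 passed at -0.81 (limma adjusted p = 0.0490). Part of this rested on Nup210+/+ replicate 2, where Cd53 was at 43.0 TPM and the remaining 3 Nup210+/+ libraries held 4.83 to 8.41. When it was left out, 12 of 12 estimates were still below 0, the median was -0.43, Cd53 was at -0.42, and Cd52 no longer passed (limma adjusted p = 0.0550). The summed TPM of the 12 was 244 to 268 in Nup210-/- and 282 to 548 in Nup210+/+. Fibroblast genes were below 0 in 7 of 7, with a median of -0.41 (from Col1a2, -0.56, to Lum, -0.18) and sums of 696 to 823 and 864 to 1389.9 TPM. The tendon genes were below 0 in 5 of 5 (from Fmod, -0.59, to Mkx, -0.061), with sums of 81.6 to 127 and 111 to 188 TPM. None of the genes of these 3 lists was at 0 in any library. The summed TPM of the 8 skeletal muscle markers was 89703 to 96133 in Nup210-/- and 83074 to 88116 in Nup210+/+, higher without overlap. In whole muscle, fewer cells of a type and less RNA per cell cannot be told apart, and the part of this shift in the higher Z-disc values was not tested beyond the scaling to muscle markers given above.

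Fast-fiber genes, of which 3 are also among the 8 skeletal muscle markers, were above 0 in 10 of 10, with a median log2 fold change of 0.18 (from Casq1, 0.033, to Myh4, 0.30), and a median of -0.035 when scaled to the 8 markers. Endothelial genes split 3 to 3 (from Tek, -0.24, to Kdr, 0.14; sums of 72.2 to 82.0 and 76.4 to 92.3 TPM). Adipocyte genes were below 0 in 5 of 5 (from Lep, -0.34, to Plin1, -0.073), with sums of 204 to 389.5 and 246 to 633 TPM, and none of these 3 lists had a gene past a limma adjusted p of 0.05 (at an unadjusted p of 0.05, 4 fast-fiber genes were higher, 1 endothelial gene was lower and 0 adipocyte genes differed). Smooth muscle estimates ran from Acta2, -0.41, to Lmod1, 0.38. One Nup210+/+ library stood apart: 6 granulocyte precursor genes (from Ctsg, -1.83, to Cebpe, -0.87) summed to 382 TPM in Nup210+/+ replicate 2 and to 0.31 to 2.12 TPM elsewhere. Without that library the Z-disc counts were 0 of 10 at an adjusted p of 0.05, 5 of 10 at an unadjusted p of 0.05 and 4 of 10 higher without overlap, as with it, and the median log2 fold change of the 10 was 0.21. Of all tested genes, 12.96% were then at an unadjusted p of 0.05 in either direction and 6.37% higher without overlap.

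**Figure D4:**
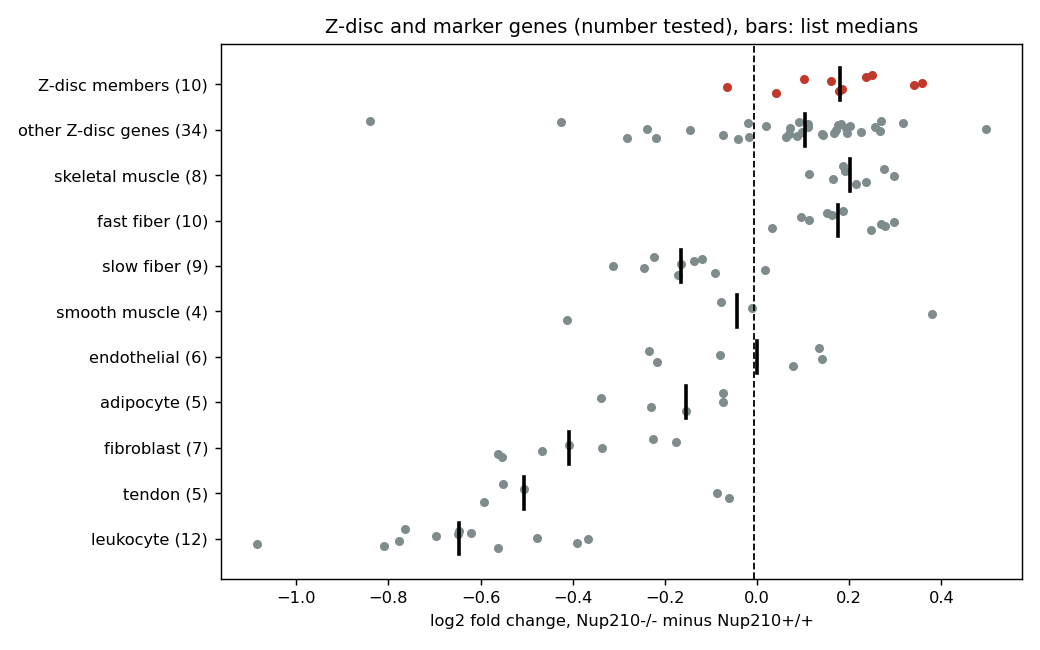
Log2 fold change (Nup210-/- minus Nup210+/+, median-of-ratios scaling) of the Z-disc genes (red) and of the other gene lists (gray), 1 point per tested gene, with the list median as a black bar and the median of all tested genes as a dashed line. Z-disc, skeletal muscle and fast-fiber genes lie to the right under this scaling, at medians of 0.18, 0.20 and 0.18 (not when scaled to the muscle markers), and fibroblast, tendon and leukocyte genes to the left.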

How the data were processed

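RNA sequencing of quadriceps muscle was analysed in 8 libraries, 4 per genotype, grouped by the labels. Polyadenylated RNA was made into directional, single-end libraries. The authors trimmed reads with cutadapt (version 2.3), aligned them to mm10 with STAR (version 2.7.0d) and estimated expression with RSEM (version 1.3.1) on Ensembl annotations, and deposited TPM per gene and library, without pooling. TPM hold no depth, so an abundant gene in one library lowers all others, and counting error is unknown.

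Each library was scaled to the others by median-of-ratios factors (15225 genes with no 0 value), and the log2 of scaled TPM + 1 was used, a scale that understates changes of low genes. Genes averaging 0.5 TPM or more, 14229 in all, entered a limma fit (version 3.58.1, R 4.3.3, eBayes with trend, genotype as the only term), with Benjamini-Hochberg adjustment over all of them. For single genes, a two-sided exact permutation test enumerated the 70 labelings (smallest p 0.0286). The p-values measure the spread between mice. On simulated data for the 14229 genes, the test recovered 0% of true log2 differences of 0.25, 29.3% of those of 0.5 and 80.0% of those of 1. Alternatives covered the pseudocount, the filter, the scaling, the variance model, the replicate number as a block and each library left out.

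The members and lists were chosen with earlier results of these data known. Named by rule are the 10 genes, Nup210, the genes of each other list past an adjusted p of 0.05 or with its largest or smallest estimate, and the 3 genes most like each member. Others, such as Myh11, Actn1, Actn4, Plec, Vim and the calcineurin genes, were named outside that rule. Promoter sequences and motif shares come from RefSeq (GRCm38.p6) and gene positions from GENCODE M21.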

Additional observations from a re-analysis of the deposited data

Results flagged for a closer look

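Of 36 groups of 4 libraries examined for a sample far from the others (TPM of single genes and summed TPM of the marker lists, by genotype), 3 passed the limit, where chance gives about 1.8. Myoz1 in Nup210-/- had replicate 2 at 1290.2 TPM, below the other 3 libraries at 1386 to 1389 TPM. Myoz3 in Nup210-/- had replicate 1 at 67.7 TPM, above the other 3 at 58.5 to 59.9 TPM. The summed TPM of 6 granulocyte precursor genes in Nup210+/+ was 382 in replicate 2, against 0.31 to 2.12 in the other 3.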

How the results depend on the processing

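Of the 10 Z-disc genes, 0 passed a limma adjusted p of 0.05 under any of the 19 alternatives, and the lowest adjusted p was 0.0534 (Tcap, with library weights). The counts of 5 at an unadjusted p and of 4 higher without overlap ran from 4 to 7 and from 4 to 5, except when scaled to the 8 skeletal muscle markers, where both were 0. Signs turned for Actn2, from 0.041 to -0.053 with TPM as deposited, -0.016 with library weights, -0.17 when scaled to the markers, and -0.024 and -0.082 without Nup210-/- replicate 2 and Nup210+/+ replicate 2 (range with a library left out -0.082 to 0.13); for Myoz2, to 0.0069 without Nup210-/- replicate 1 and 0.0056 without replicate 3 (range -0.18 to 0.0069); and, scaled to the markers, for Actn3 (-0.032), Myoz1 (-0.026), Myot (-0.049) and Mypn (-0.11). The median of all tested genes was -0.0061, and -0.085 with TPM as deposited, 0.016 with upper-quartile scaling and -0.18 with the markers, and the cause of the other shifts was not tested.

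Past an adjusted p of 0.05 there were 16 of all tested genes and 2 of the 34 other genes of the Z-disc and its partners. The former were 1 with any TPM above 0, 27 at a mean TPM of at least 1, 0 with upper-quartile scaling, 10 without mitochondrial and the top 20 genes, 0 without trend, 84 with library weights, 82 scaled to the markers and 0 to 10 with a library left out. The latter were 0 with any TPM above 0, with upper-quartile scaling and without trend, 3 with library weights and 0 to 1 with a library left out. The 14 correlated pairs were 0 without the 2 farthest libraries, 5 without Nup210+/+ replicate 2 and 0 with genotype means subtracted. In the first and last of these checks a pair that held alone could not pass. The log2 ratio of Myoz3 to Myoz1 was 0.12 to 0.20 with a library left out, and 0.20 (exact permutation p = 0.0286) without Nup210+/+ replicate 4.

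The replicate numbers are shared between genotypes but did not pair the libraries: deviations from the genotype mean correlated at -0.033, 0.0054, 0.019 and 0.086 for libraries of the same number. With the replicate number as a block, 0 of all tested genes passed, 0 of the 10 and 0 of the 34. The block left 5 of the 10 at an unadjusted p of 0.05.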
